A study of Homo sapiens with 16 samples.

Results

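The EGFR family comprises the receptor tyrosine kinase EGFR, its relatives ERBB2 and ERBB3, and the secreted growth factors that engage them. Members were the 10 genes listed for this pathway (3 receptors, 6 ligands and the receptor inhibitor ERRFI1), each found by symbol as 1 row among the 18332 gene rows of the deposited table. RNA-Seq measured them in 2 established human breast cancer cell lines without estrogen receptor, MDA-MB-231 and MDA-MB-468. Each line spent 48 hours at a glucose concentration of 5 mM, called low glucose and serving as control, or of 25 mM, called high glucose and standing for hyperglycemia. Each of the 4 groups had 4 replicates, 16 libraries in all. Per the study's methods, cells were first conditioned in low-glucose medium, and the glucose media of both arms held no serum. The lines were maintained in different base media, DMEM for MDA-MB-231 and RPMI for MDA-MB-468, and each line stands for 1 donor, so that line, donor and maintenance medium cannot be told apart.

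Ligands of this family are made as membrane-anchored precursors and are cut free by surface proteases. A bound ligand lets EGFR pair with itself or a relative, and the paired kinases then feed the ERK, PI3K and STAT3 pathways. ERBB2 has no known ligand of its own, ERBB3 has a weak kinase and binds neuregulins, and ERRFI1 (also called MIG6) binds the EGFR kinase domain and blocks it, being itself induced by ERK signaling. MDA-MB-468 is known for extra copies of the EGFR gene. Copy number and protein were not measured here.

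Library depth was 14094597 to 24425916 reads assigned to genes, and 3 reads in a library corresponded to 0.123 to 0.213 CPM (reads per 1000000 library reads). Line markers separated the lines as labelled. E-cadherin (CDH1) in low glucose averaged 5.51 normalized read counts (reads over a size factor of the library) in MDA-MB-231 against 2007 in MDA-MB-468, and vimentin (VIM) 96228 and 21.5. Transcripts of genes known to be lost in MDA-MB-468 were near 0 there for SMAD4 (mean 1.35) and low for RB1 (15.9). The estrogen receptor gene ESR1 was low in both lines, with means of 1.31 and 57.9. Of 4 markers of leukocytes, endothelium and fibroblasts, 3 were in the table, and their summed level was 542 to 578 in MDA-MB-231 in low glucose and 518 to 640 in high glucose. In MDA-MB-468 the same sum was 257 to 289 and 288 to 349, most of it COL1A1. With high glucose in MDA-MB-231, 1 of the 3 markers passed, PDGFRB (log2 difference 0.29, adjusted p = 0.00886, limma), where 15.1% of all genes passed. COL1A1 averaged 338 and 301 and PTPRC 12.5 and 9.26 in low and high glucose. In MDA-MB-468, 2 passed, where 47.6% of all genes passed. COL1A1 was higher (0.28, adjusted p = 0.00568, limma) and PTPRC lower (-1.36, from 8.77 to 3.12, adjusted p = 0.0303, limma). The lower PTPRC mean is at the level of 3 reads in a library (2.14 to 3.43 normalized read counts). PDGFRB averaged 10.3 and 7.09. The median difference of the 3 markers was -0.18 and -0.48 in these lines, and their part in the results was not tested. In bulk cultures, fewer cells expressing a gene and less RNA per cell cannot be told apart. The labels name 4 replicates per group without saying how the cultures were separated, so the p-values measure only the spread between these libraries.

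On hg19 the receptor genes are EGFR (ENSG00000146648, chr7:55086710-55279321, plus strand), ERBB2 (ENSG00000141736, chr17:37844167-37886679, plus strand) and ERBB3 (ENSG00000065361, chr12:56470583-56497289, plus strand). The ligand genes of the chromosome 4 cluster are EPGN (ENSG00000182585, chr4:75174187-75182506, plus strand), EREG (ENSG00000124882, chr4:75230862-75254466, plus strand), AREG (ENSG00000109321, chr4:75310853-75320722, plus strand) and BTC (ENSG00000174808, chr4:75669969-75719733, minus strand). The remaining ligand genes are TGFA (ENSG00000163235, chr2:70674416-70781325, minus strand) and HBEGF (ENSG00000113070, chr5:139712428-139726188, minus strand), and the inhibitor is ERRFI1 (ENSG00000116285, chr1:8064464-8086369, minus strand). All are protein-coding.

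The members lie on 7 chromosomes, and 4 of the ligand genes (EPGN, EREG, AREG and BTC) sit within 546 kb of chromosome 4. Upstream sequences are shown for the receptor EGFR, for HBEGF, the ligand with the clearest difference with glucose, and for AREG and EREG, the ligands that set the lines apart most. Each is the 250 bases before the annotated start, 5′ to 3′ on the gene's strand, from RefSeq promoters (GRCh38.p14) with positions by exact match to GRCh37 (the AREG stretch matched at 2 places, the other being the gene copy AREGB). Capitals mark matches, on either strand, to 6 motifs. They were an AP-1 site spelled TGANTCA, the cAMP response element spelled TGACGTCA, a GC box spelled GGGCGG, and an E box spelled CACGTG. The TATA box was searched as TATAAA and the remaining motif was CCAAT.
EGFR, chr7:55086460-55086709, plus strand: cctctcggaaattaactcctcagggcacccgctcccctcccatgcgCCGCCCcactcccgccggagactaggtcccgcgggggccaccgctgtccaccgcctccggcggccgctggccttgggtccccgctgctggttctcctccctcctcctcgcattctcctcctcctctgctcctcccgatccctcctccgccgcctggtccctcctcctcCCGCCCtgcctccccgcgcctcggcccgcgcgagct
HBEGF, chr5:139726189-139726438, minus strand: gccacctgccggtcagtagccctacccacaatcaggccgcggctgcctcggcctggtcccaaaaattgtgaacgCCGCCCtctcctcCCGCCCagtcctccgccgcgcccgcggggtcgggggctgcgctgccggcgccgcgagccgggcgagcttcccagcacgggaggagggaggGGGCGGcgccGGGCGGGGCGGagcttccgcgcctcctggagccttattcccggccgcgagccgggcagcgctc
AREG, chr4:75310603-75310852, plus strand: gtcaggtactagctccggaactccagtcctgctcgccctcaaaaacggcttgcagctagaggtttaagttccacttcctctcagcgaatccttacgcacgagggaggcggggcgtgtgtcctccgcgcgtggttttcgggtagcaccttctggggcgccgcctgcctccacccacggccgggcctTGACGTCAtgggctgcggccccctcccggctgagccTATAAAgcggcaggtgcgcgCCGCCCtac
EREG, chr4:75230612-75230861, plus strand: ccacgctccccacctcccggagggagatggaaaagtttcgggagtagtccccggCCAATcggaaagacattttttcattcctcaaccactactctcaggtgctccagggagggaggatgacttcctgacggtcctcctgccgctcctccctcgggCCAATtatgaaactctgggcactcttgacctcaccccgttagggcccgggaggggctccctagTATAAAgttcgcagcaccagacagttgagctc

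HBEGF held 5 GC boxes in a window of 76.4% G and C, and EGFR held 2 in a window of 73.6%. AREG and EREG both held TATAAA, 29 and 32 bases before the start. EPGN held it as well, so that the match was in 3 of 9 members, against 10.7% of 35116 promoters. The full cAMP response element in AREG, from 65 to 58 bases before the start, occurs in 1.65% of promoters. Of the 9 members with a RefSeq promoter entry (ERBB3 had none), 5 held a GC box, against 42.6% of promoters. CCAAT was in 4 members, against 32.0% of promoters, and an AP-1 site in ERBB2 alone, against 6.57%. These matches are letters in a window and not measured binding sites.

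Levels can be set against each other only per length, as CPM per kilobase of the canonical transcript (RPKM). ERRFI1 was the most abundant member in MDA-MB-231 in low glucose, at 269 ± 7.22 RPKM (SD, n = 4), followed by EGFR at 53.2 ± 0.920. HBEGF came next at 22.6 ± 0.946, then ERBB2 at 19.2 ± 1.77, AREG at 15.9 ± 0.453 and TGFA at 9.59 ± 0.480. EREG (2.47), ERBB3 (1.65), BTC (0.754) and EPGN (0.0221) closed the order, and no neighbors in it overlapped between libraries. In high glucose ERBB2, HBEGF and AREG overlapped with their neighbors at 18.1, 15.7 and 14.6 RPKM.

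MDA-MB-468 presented another order, with EGFR far ahead at 403 ± 11.9 RPKM in low glucose, 0.816% from the top of all genes ranked. ERBB3 (17.2 ± 0.949), ERRFI1 (14.7 ± 1.10) and ERBB2 (13.5 ± 1.15) followed and overlapped with their neighbors. TGFA stood at 8.74 ± 0.368, HBEGF at 1.27 ± 0.133 and BTC at 0.589 ± 0.117, while AREG, EPGN and EREG averaged 0.263, 0.0706 and 0.0462.

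**Figure D1:**
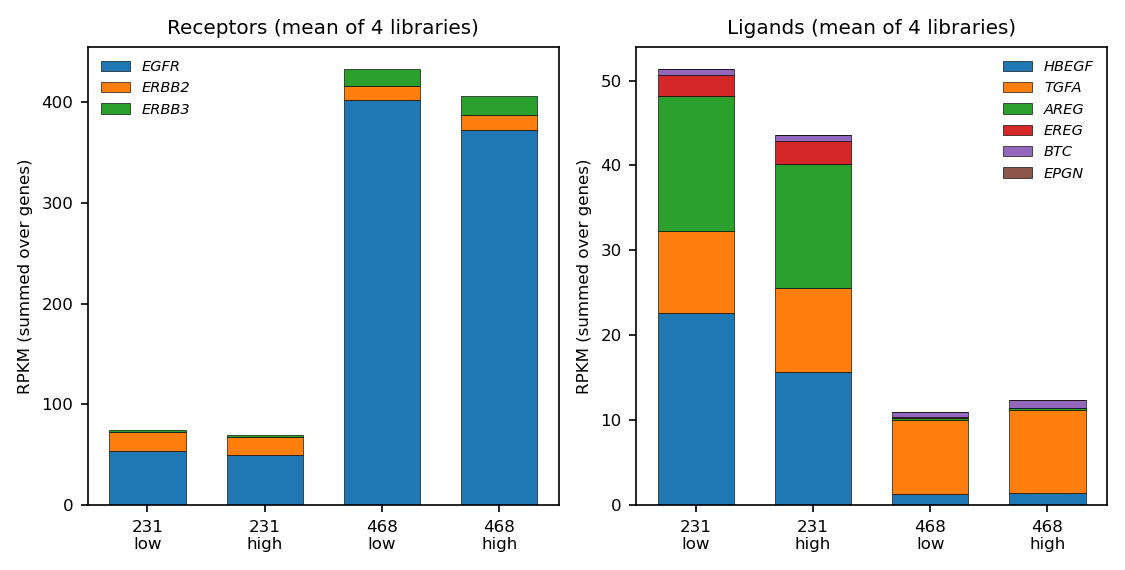
Mean RPKM of the receptors (left) and of the ligands (right) stacked per group, with the line and the glucose condition on the x axis and 4 libraries per bar. EGFR makes up most of the receptor RNA in both lines, and the ligand sum is 51.4 in MDA-MB-231 against 10.98 in MDA-MB-468 in low glucose, where TGFA makes up most of it.

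The balance of ligands differed between the lines. In MDA-MB-231 in low glucose, HBEGF held 44.1% ± 0.926 of the summed ligand RPKM (SD, n = 4), AREG 30.9% ± 0.759 and TGFA 18.7% ± 0.689. In MDA-MB-468, TGFA alone held 79.6% ± 1.34, HBEGF 11.6% ± 0.774 and BTC 5.36% ± 1.003. EGFR RPKM per summed ligand RPKM in low glucose was 1.04 ± 0.0254 for MDA-MB-231, and for MDA-MB-468 it was 36.7 ± 1.34. The same ratio was 1.14 ± 0.0342 and 30.2 ± 1.87 in high glucose, without overlap between the glucose groups of either line. These shares and ratios are descriptions of the members and were not tested.

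The first question was how the family responded to high glucose in MDA-MB-231. HBEGF fell, EGFR fell slightly, and ERRFI1 and ERBB3 rose slightly, 4 of the 9 members tested (2 higher and 2 lower), where 15.1% of the 14884 genes tested passed (5.71% higher and 9.37% lower). The groups did not overlap for 5 members, against 18.7% of genes. The median log2 difference was -0.11 over the members tested and 0.00175 over all genes. EPGN did not pass the filter on low values.

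EGFR measured 9091, 8977, 9178 and 9304 normalized read counts in the MDA-MB-231 libraries in low glucose and 8492, 8358, 8422 and 8210 in high glucose. Every high-glucose library lay below every low-glucose library, and the log2 difference was -0.13 (SE 0.026, adjusted p = 0.00312, limma). The call was lost after a correction for transcript length (log2 difference -0.07, adjusted p = 0.069, limma).

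ERBB3, the receptor for neuregulins, measured 147.9, 167.3, 171.0 and 156.3 in low glucose and 198.5, 193.5, 181.1 and 204.5 in high glucose. The groups did not overlap, and the log2 difference was 0.27 (SE 0.081, adjusted p = 0.0301, limma). Without low-glucose replicate 1 or 4 the adjusted p was 0.0948 or 0.0507, and without high-glucose replicate 1, 2 or 4 it was 0.0749, 0.063 or 0.0869 (limma), so the call needed each of these libraries. DESeq2 gave an adjusted p of 0.0617 for the same change.

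ERBB2, the partner receptor without a ligand, ranged from 1319 to 1654 in low glucose and from 1252 to 1550 in high glucose. The ranges overlapped, with a log2 difference of -0.11 (SE 0.067, adjusted p = 0.30, limma). Leaving out low-glucose replicate 4, the lowest library of that group, gave -0.18 with an adjusted p of 0.0355 (limma).

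HBEGF, the heparin-binding EGF-like growth factor, changed most in MDA-MB-231. It measured 876.7, 953.1, 952.1 and 921.2 in low glucose against 649.0, 577.5, 660.4 and 632.5 in high glucose. Even the highest high-glucose library lay well under the lowest low-glucose library, and the transcript was 1.47-fold lower (log2 difference -0.56, SE 0.051, adjusted p = 7.46e-07, limma). The difference was between -0.58 and -0.52 in all 20 alternatives run, the call held in each, and its share of ligand RPKM went from 44.1% to 36.0% ± 1.27.

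AREG (amphiregulin) measured 334.4, 344.4, 333.0 and 348.5 in low glucose and 317.2, 288.2, 297.2 and 327.2 in high glucose. These groups did not overlap, yet the log2 difference of -0.15 (SE 0.062) missed the threshold at an adjusted p of 0.131 (limma). AREG counts are uncertain because hg19 holds a near-identical gene copy, AREGB, 170 kb away. Of the 1134 stretches of the AREG transcript as long as a read of the study's tumor libraries (the read length of these libraries is not given in the sources used here), 1033 (91.1%) also occur in AREGB, and how shared reads were assigned is not given in the sources used here. In MDA-MB-231 AREGB held at most 1 read per library, so the sum of both genes gave nearly the same values as AREG alone.

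EREG (epiregulin) ranged from 188.9 to 205.6 in low glucose and from 197.8 to 243.4 in high glucose, with a log2 difference of 0.10 (95% interval -0.07 to 0.27). TGFA (transforming growth factor alpha) ranged from 654.6 to 718.7 and from 645.8 to 734.6, with an interval of -0.10 to 0.13. BTC (betacellulin) ranged from 29.8 to 38.0 and from 29.7 to 35.0, with an interval of -0.48 to 0.25. None of the 3 passed the test, and their groups overlapped. EPGN (epigen) had 4 reads in all low-glucose libraries of this line together and 1 in the high-glucose libraries, and no fold is given.

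ERRFI1 measured 14282, 14713, 14138 and 14725 in low glucose and 15759, 15803, 15671 and 15526 in high glucose. Thus the inhibitor rose while EGFR fell in the same libraries, without overlap, and its log2 difference was 0.12 (SE 0.026, adjusted p = 0.00433, limma). One model over all 16 libraries gave the same difference with an adjusted p of 0.059 (limma).

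**Figure D2:**
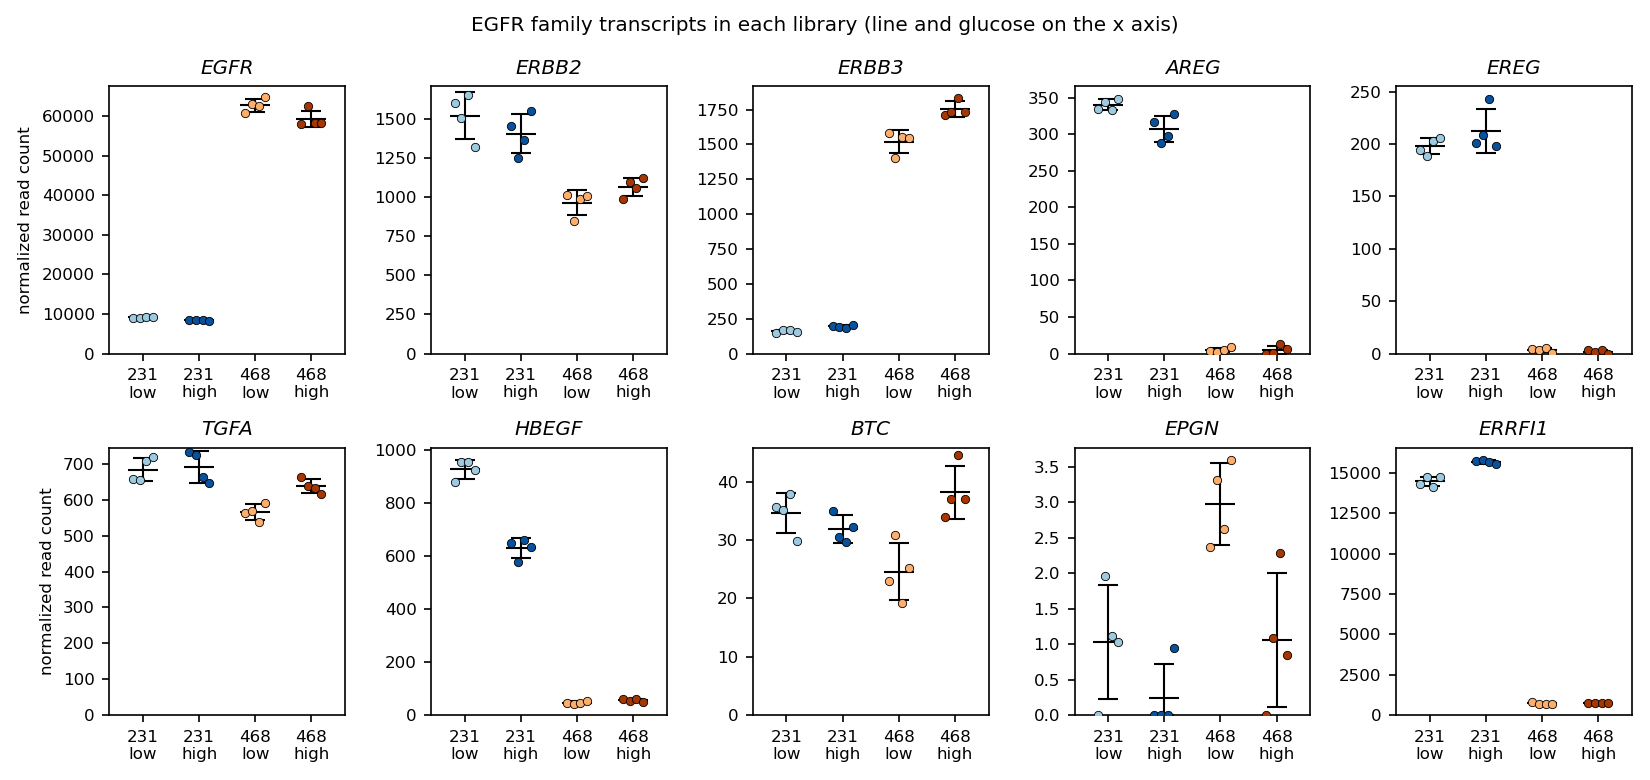
Normalized read counts (y axis, from 0, scaled per gene) of the 10 members in each library, by line and glucose condition on the x axis, with horizontal bars for the mean and whiskers for the SD (cut at 0) of 4 libraries. The HBEGF libraries of MDA-MB-231 separate by glucose (876.7 to 953.1 against 577.5 to 660.4), while AREG, EREG and EPGN sit near 0 in MDA-MB-468.

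In MDA-MB-468 with high glucose, TGFA, BTC, ERBB3 and, close to the threshold, ERBB2 rose, and EGFR was slightly lower. These were 5 of the 8 members tested (4 higher and 1 lower), in a comparison in which 47.6% of the 15757 genes tested passed (24.9% higher and 22.7% lower), so that the share of members called lies near that of genes at large. The count was 2 without low-glucose or high-glucose replicate 3, and 3 without high-glucose replicate 4 or without the filter on low values. Groups of 3 members did not overlap, against 42.5% of genes. Neither EREG nor EPGN passed the filter on low values in this line.

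EGFR measured 60648, 62950, 62406 and 64730 normalized read counts in low glucose and 58085, 62397, 58133 and 58275 in high glucose. High-glucose replicate 2 stood within the low-glucose range and the other libraries of its group below it, with a log2 difference of -0.08 (SE 0.030, adjusted p = 0.0329, limma) that turned to 0.01 after the correction for transcript length. Without low-glucose replicate 3 or 4 the adjusted p was 0.0619 or 0.0995, and without high-glucose replicate 1, 3 or 4 it was 0.101, 0.0966 or 0.0826 (limma).

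For ERBB3, the low-glucose libraries read 1582, 1402, 1554 and 1543 and the high-glucose libraries 1712, 1730, 1835 and 1731. The groups did not overlap, the log2 difference was 0.21 (SE 0.042, adjusted p = 0.00067, limma), and the call held in all 20 alternatives, as it did for TGFA. ERBB3 was thus the member called higher in both lines, and the difference between its responses did not pass (-0.07, 95% interval -0.23 to 0.09).

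ERBB2 measured 1015, 846.1, 988.1 and 1007 in low glucose and 985.8, 1093, 1061 and 1124 in high glucose. The groups overlapped, and the log2 difference of 0.15 (SE 0.058) passed narrowly, with an adjusted p of 0.0451 (limma). Low-glucose replicate 2 was the lowest library, and without it the difference was 0.09 (adjusted p = 0.158, limma). Without low-glucose replicate 3 or high-glucose replicate 2, 3 or 4 the adjusted p was 0.0549, 0.0897, 0.073 or 0.122, and edgeR and DESeq2 gave 0.0565 and 0.0638.

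TGFA, the main ligand transcript of this line, measured 564.6, 569.6, 537.4 and 591.9 in low glucose and 665.0, 639.0, 634.1 and 617.9 in high glucose. Every high-glucose library lay above every low-glucose library, with a log2 difference of 0.18 (SE 0.048, adjusted p = 0.00645, limma).

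BTC, a ligand that also engages ERBB4, stood at 22.9, 31.0, 19.3 and 25.2 in low glucose against 34.03, 37.1, 44.6 and 37.1 in high glucose. No libraries overlapped, and BTC was 1.55-fold higher (log2 difference 0.63, SE 0.199, adjusted p = 0.0158, limma). These values rest on 22 to 44 reads per library, and without low-glucose replicate 3 or high-glucose replicate 3, the lowest and the highest library, the adjusted p was 0.0506 or 0.0524 (limma).

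HBEGF was low in this line, at 45.1, 43.1, 46.4 and 53.9 in low glucose and 60.3, 54.6, 59.5 and 48.1 in high glucose. The groups overlapped through high-glucose replicate 4, and the log2 difference of 0.23 (SE 0.148) did not pass (adjusted p = 0.208, limma), although the model over all 16 libraries gave an adjusted p of 0.031 (limma). ERRFI1 ranged from 678.0 to 794.8 and from 719.4 to 757.0, with a 95% interval of the log2 difference from -0.07 to 0.15.

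AREG and EREG were at the limit of detection in MDA-MB-468. AREG measured 3.95, 2.21, 5.25 and 8.98 in low glucose and 0, 1.09, 12.6 and 6.74 in high glucose, from 23 and 20 reads per group. The 2 high-glucose libraries in which AREG was lowest were the ones with AREGB reads, 9 in replicate 1 and 5 in replicate 2, so the sum of both genes came to 8.75, 6.55, 12.6 and 6.74. The log2 difference was -0.54 for AREG and 0.74 for the sum (adjusted p = 0.575 and 0.189, limma), and neither passed. The AREG means were 5.10 ± 2.87 and 5.11 ± 5.80 (SD, n = 4), so the difference of -0.54 is one of mean log values and not of means. EREG had 15 reads over the low-glucose libraries and 7 over the high-glucose libraries, and EPGN 13 and 4, at which depth no difference was tested.

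**Figure D3:**
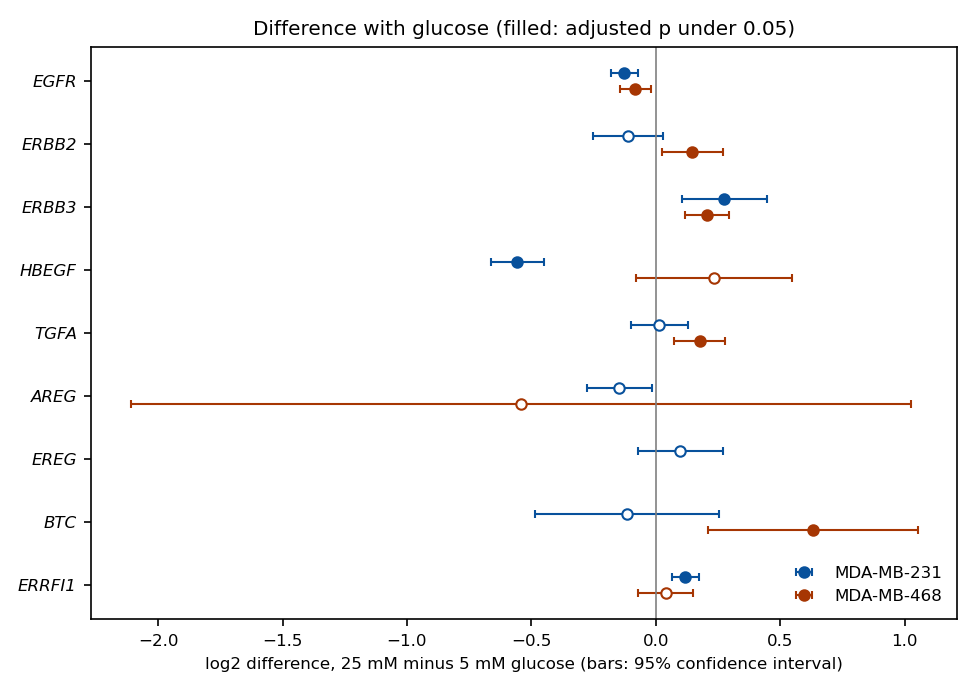
Log2 difference (x axis, 25 mM minus 5 mM glucose) of each member tested, with its 95% confidence interval, in MDA-MB-231 (blue) and MDA-MB-468 (orange), from 4 against 4 libraries per line. Filled points passed the test. HBEGF lies at -0.56 in MDA-MB-231 against 0.23 in MDA-MB-468, and BTC at -0.11 and 0.63.

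Whether the lines responded differently was tested by the interaction of glucose and line over all 16 libraries. HBEGF and BTC passed, 2 of the 9 members tested (both higher in MDA-MB-468), where 30.9% of the 17115 genes tested passed (17.0% higher and 13.9% lower). For HBEGF the response in MDA-MB-468 exceeded that in MDA-MB-231 by 0.79 on the log2 scale (SE 0.116, adjusted p = 6.08e-05, limma), and the call held in all 27 alternatives. For BTC the excess was 0.74 (SE 0.217, adjusted p = 0.0146, limma), with an adjusted p of 0.0573 by DESeq2.

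The other members did not pass this test. The difference between the responses was 0.26 for ERBB2 (95% interval 0.03 to 0.49, adjusted p = 0.0834, limma) and 0.16 for TGFA (0.02 to 0.31, adjusted p = 0.0895, limma). ERBB2 passed without MDA-MB-231 low-glucose replicate 4 (adjusted p = 0.0195, limma) or high-glucose replicate 4 (0.0433) and with DESeq2 (adjusted p = 0.0398), and TGFA without MDA-MB-231 high-glucose replicate 1 (0.0498). EGFR (0.04, interval -0.03 to 0.12), which passed after the length correction (0.09, adjusted p = 0.00987, limma), and ERRFI1 (-0.08, interval -0.19 to 0.04) gave narrow intervals around 0, whereas those of AREG (-2.11 to 1.31) and EREG (-1.98 to 0.38) were wide.

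MDA-MB-468 had more EGFR and ERBB3 and less ERBB2, ERRFI1, HBEGF, AREG and EREG than MDA-MB-231 in both conditions. In low glucose all 9 members tested passed, 2 higher and 7 lower in MDA-MB-468, where 85.4% of the 17115 genes tested passed (45.0% higher and 40.4% lower). In high glucose 8 of 9 passed (2 higher and 6 lower), where 85.2% of genes passed (44.6% higher and 40.6% lower). The lines did not overlap for 8 members in low glucose and 7 in high glucose, against 80.5% and 79.9% of genes. A call alone therefore says little in this comparison. EREG is part of these counts and of the median below, although it entered the fit through its MDA-MB-231 libraries alone. The median absolute log2 difference was 3.24 over the members in low glucose and 0.94 over all genes.

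Among the receptors, EGFR was 6.86-fold higher in MDA-MB-468 in low glucose (log2 difference 2.78, SE 0.026, adjusted p = 3.7e-22, limma) and 7.07-fold higher in high glucose. It took 0.399% of all gene reads in the low-glucose libraries of MDA-MB-468, against 0.0527% in MDA-MB-231. ERBB3 was 9.42-fold higher (log2 difference 3.24, SE 0.053, adjusted p = 5.57e-19, limma) and ERBB2 1.58-fold lower (log2 difference -0.66, SE 0.077, adjusted p = 4.03e-07, limma). Libraries of the 2 lines did not overlap for any of the 3 receptors in either condition.

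All ligands tested were lower in MDA-MB-468 in low glucose, by very different amounts. EPGN did not pass the filter on low values, with 13 low-glucose reads in MDA-MB-468 and 4 in MDA-MB-231. EREG passed that filter through its MDA-MB-231 libraries alone, so its direction followed from the filter and no p-value is given for it. AREG differed by -5.92 (SE 0.571, adjusted p = 2.88e-08, limma) and EREG by -5.64 (SE 0.396) on the log2 scale. With so few reads in MDA-MB-468 these values depend on the pseudocount and tool, from -6.41 to -5.14 for AREG and from -6.24 to -4.63 for EREG over the alternatives. HBEGF was 19.3-fold lower in low glucose (log2 difference -4.27, SE 0.082, adjusted p = 4.22e-18, limma) and 11.2-fold lower in high glucose.

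TGFA was the ligand closest between the lines, 1.21-fold lower in low glucose (adjusted p = 5.32e-05, limma). In high glucose its log2 difference was -0.11 (adjusted p = 0.0394, limma), and the adjusted p was 0.134 or 0.118 without MDA-MB-231 replicate 1 or 2 and 0.0621, 0.0711 or 0.0995 without MDA-MB-468 replicate 2, 3 or 4. BTC was 1.41-fold lower in low glucose (adjusted p = 0.00649, limma) and did not pass in high glucose, where its difference was 0.25 (95% interval -0.07 to 0.57) and turned to -0.06 with quantile rescaling.

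ERRFI1, the inhibitor, was 20.2-fold lower in MDA-MB-468 in low glucose (log2 difference -4.34, SE 0.038, adjusted p = 2.44e-22, limma) and 21.4-fold lower in high glucose. The line with the higher EGFR level was thus the one with the lower level of its inhibitor, with 403 RPKM of EGFR beside 14.7 of ERRFI1, against 53.2 beside 269 in MDA-MB-231.

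Genes next to the members were compared in the same way. Of the 10 genes in the table that start within 1000000 bases of the EGFR start, 9 passed in low glucose, all of them higher in MDA-MB-468, where 85.4% of all genes passed (45.0% higher). LANCL2 differed by 5.11 and VOPP1 by 4.36 on the log2 scale, beside 2.78 for EGFR. The antisense gene EGFR-AS1 lies within the EGFR locus, and whether reads were counted by strand is not given in the sources used here. Reads from the overlap can therefore not be assigned to either gene with certainty. EGFR-AS1 was given 123 low-glucose reads in MDA-MB-468 and 8 in MDA-MB-231, against 276977 and 39160 for EGFR. Around AREG, 8 of 10 genes were tested and 7 passed, 1 higher (RASSF6, 2.57) and 6 lower, led by PARM1 (-4.79) and the chemokine gene CXCL2 (-2.69). BTC, at the far end of the ligand cluster, differed by -0.50.

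**Figure D4:**
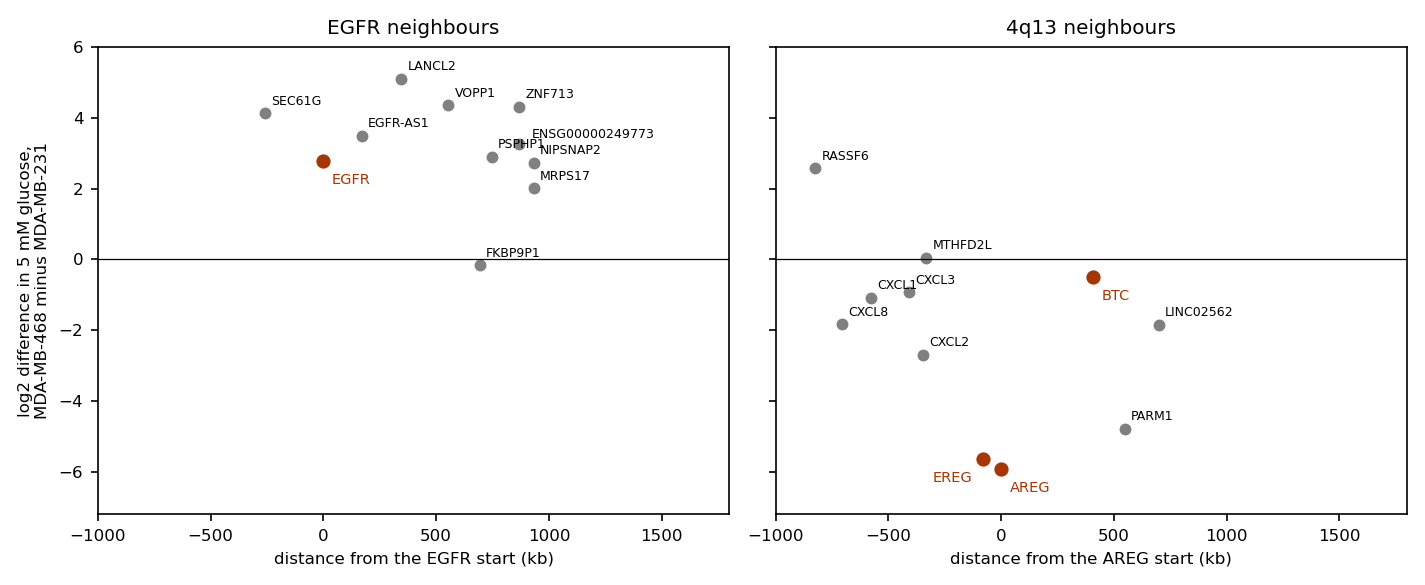
Log2 difference between the lines in low glucose (y axis, MDA-MB-468 minus MDA-MB-231) of tested genes against the distance of their start from that of EGFR (left) or AREG (right) in kilobases, with members in orange. Genes around EGFR lie above 0 apart from FKBP9P1, and AREG and EREG lie at -5.92 and -5.64.

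Among relatives outside the members, 5 of 6 were in the table (ERBB4, EGF, NRG1, NRG2 and NRG4), and 0 of the 4 tested in MDA-MB-231 and 0 of the 3 in MDA-MB-468 passed with glucose (limma). There were 0 at an unadjusted p under 0.05 in either line, where 27.1% and 53.5% of all genes lay under it, and 0 called by edgeR or DESeq2. Between the lines all 5 passed in low glucose, 1 higher and 4 lower in MDA-MB-468. Over all genes the share was 85.4% (45.0% higher and 40.4% lower). NRG1, ERBB4 and NRG4 passed the filter on low values through the libraries of 1 line alone, so their direction followed from the filter. NRG1, a neuregulin that binds ERBB3, had 3044 reads in the MDA-MB-231 low-glucose libraries and 0 in those of MDA-MB-468, at least 948-fold lower against a floor of 3 reads over the group. The line with more ERBB3 thus had no NRG1 read detected. NRG4 was the relative that was higher in MDA-MB-468 (log2 difference 2.43), with 79 low-glucose reads against 11 in MDA-MB-231.

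The ligand-shedding list, surface proteases and their regulators, had 3 of 10 genes called with glucose in MDA-MB-231 (1 higher and 2 lower). In MDA-MB-468 it had 6 of 9 (4 higher and 2 lower). The shares over all genes were 15.1% and 47.6%. RHBDF1 rose by 0.18 in MDA-MB-231, and RHBDL2 and FRMD8 rose by 0.31 and 0.26 in MDA-MB-468. The list's median log2 difference was 3.9e-05 and -0.07. ADAM10 and ADAM9, proteases of the cell surface, were lower in both lines, by -0.19 and -0.14 in MDA-MB-231 and by -0.11 and -0.20 in MDA-MB-468 on the log2 scale. Between the lines in low glucose, 9 of 10 genes of the list passed, 2 higher and 7 lower in MDA-MB-468, with a median of -0.74. Of all genes, 85.4% passed there (45.0% higher and 40.4% lower). The genes higher in MDA-MB-468 were RHBDL2 (4.55) and ADAM17 (0.85), the main protease releasing AREG, HBEGF and TGFA. Those lower included ADAM9 (-1.61) and TIMP3 (-2.84), an inhibitor of ADAM17.

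Receptor-proximal adaptors and enzymes passed in 3 of 18 cases with glucose in MDA-MB-231 (1 higher and 2 lower) and in 7 of 18 in MDA-MB-468 (3 higher and 4 lower), with median log2 differences of -0.03 and 0.03. These counts stand beside 15.1% and 47.6% of all genes. PIK3R1, a regulatory subunit of PI3K, rose by 0.57 in MDA-MB-468 (adjusted p = 7.3e-08, limma), and STAT3, a transcription factor downstream of the receptor, differed by -0.39 (adjusted p = 9.36e-09, limma). Of the genes that turn receptors over, 3 of 20 passed in MDA-MB-231 (1 higher and 2 lower) and 14 of 21 in MDA-MB-468 (4 higher and 10 lower), with medians of -0.02 and -0.12, again beside 15.1% and 47.6% of all genes. CBL, the ubiquitin ligase of activated EGFR, was lower in both lines (-0.14 and -0.32), and LRIG1, which promotes receptor breakdown, was 0.25 higher in MDA-MB-468.

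Of the transcripts known to rise with ERK activity, 3 of 10 passed in MDA-MB-231, all lower, where 15.1% of all genes passed (9.37% lower). In MDA-MB-468, 7 of 10 passed, 1 higher (DUSP4, 0.19) and 6 lower, where 47.6% of all genes passed (22.7% lower). The median log2 difference of the list was -0.05 for MDA-MB-231. For MDA-MB-468 it was -0.31, against 0.00011 over all genes. SPRY4 and EPHA2 led the falls in MDA-MB-468 (-0.72 and -0.51, adjusted p = 0.00698 and 1.24e-06, limma), and the interaction passed for 6 of 10, 5 of them toward lower in MDA-MB-468, where 30.9% of all genes passed (13.9% lower). In the same libraries TGFA and BTC were higher and EGFR differed by -0.08. Between the lines 9 of 10 were lower in MDA-MB-468 in low glucose (40.4% of all genes), with a median of -4.06, and DUSP6 and SPRY4 differed most (-6.76 and -6.54).

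**Figure D5:**
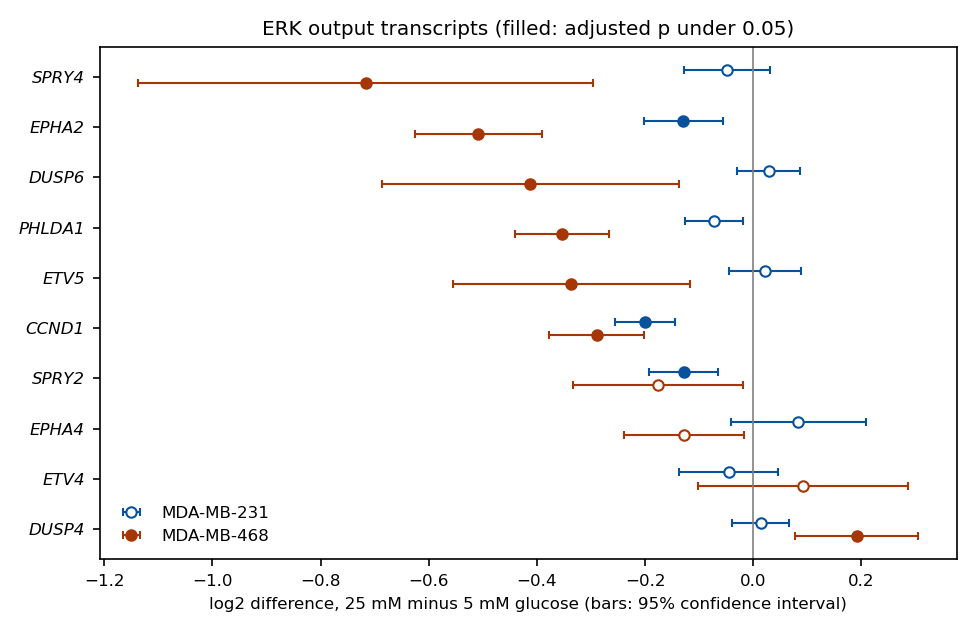
Log2 difference (x axis, 25 mM minus 5 mM glucose) with its 95% confidence interval for 10 transcripts known to rise with ERK activity, in MDA-MB-231 (blue) and MDA-MB-468 (orange), 4 against 4 libraries per line, with filled points past the threshold. In MDA-MB-468, 6 lie below 0 past the threshold and DUSP4 (0.19) above it.

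Likeness to a member was taken as Pearson's r over the 16 libraries after subtracting each line's mean, among 12802 other genes tested in both lines. EGFR was most like ATF7 (r = 0.97), AFAP1 (0.96) and MED13L (0.95). ERRFI1 was most like ACAD8 (0.83), NPC1 (0.82) and CIAO1 (0.80), and ERBB2 most like UPF1 (0.93), ZMIZ2 (0.93) and CHPF (0.92). For ERBB3 the nearest were YIPF2 (0.97), HS1BP3 (0.92) and SLC50A1 (0.92), and for AREG they were SCXA (0.85), MIR23AHG (0.82) and EPOR (0.80). AREG in MDA-MB-468 rests on 2 to 10 reads per low-glucose library and 0 to 11 per high-glucose library. Its r values thus depend on counts at the limit of detection, where the assignment of reads to AREG or AREGB also matters. EREG was not tested in both lines. The libraries share their depth and glucose group.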

How the data were processed

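RNA-Seq values of 16 libraries (2 lines, 2 glucose conditions, 4 replicates each, grouped by the sample labels) were taken from 1 table. For the cell lines the study's methods give culture, RNA isolation and the sequencer. Its pipeline (stranded mRNA libraries, TopHat, hg19, an Ensembl annotation, DESeq2) is described for the tumors, and whether it was used for these libraries is not given in the sources used here. The labels' processing notes list hg38 and edgeR. Gene IDs in the table end at number 269867 and include the hg19 gene AREGB, so hg19 was used. The library type, counting program and use of strand are not given in the sources used here. For each gene and library the authors deposited a normalized signal, that is, its reads over a size factor for the library. All values (100%) were whole multiples of 1 step within 0.001, with a largest deviation of 5.82e-05, and whole reads were recovered from them. Symbols were matched for 16633 of 18332 gene IDs and lengths for 17647, from a GENCODE annotation lifted to GRCh37. Depth was 14094597 to 24425916 reads per library. A floor of 3 reads covers counting error only.

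The members and gene lists were chosen with earlier results of these data known. A gene entered a fit if 2 or more of its libraries reached 0.5 CPM, and was tested with limma 3.58.1 (R 4.3.3) on log2(value + 1), with a trended prior, two-sided, with Benjamini-Hochberg adjustment over all genes and a threshold of 0.05. A difference on this scale can understate the change of low genes. It is one of mean log values and can also depart from the difference of the means. Glucose was tested within each line (8 libraries each), and the interaction and the lines over all 16. The test was checked on simulated data. Alternatives were other pseudocounts (0.5 and 5), filters, TMM and quantile rescaling, a replicate block, a length correction, edgeR 4.0.16 and DESeq2 1.42.0 on the recovered reads, each library left out, and the sum of AREG and AREGB, which was added after seeing the data. All 10 members are named. From each list, per comparison, at most the 2 largest rises and 2 largest falls past the threshold with at least 1 CPM are named, and the likeness shown is that of the 4 members with the largest values plus AREG. ERBB4, NRG2, AREGB, EGFR-AS1 and FKBP9P1 are named beyond this rule, after their values were seen.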

Additional observations from a re-analysis of the deposited data

Results flagged for a closer look

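Of 40 member-by-group sets of 4 libraries, 4 had a library far from the other three by Dixon's criterion, where chance gives about 1 in 20. EGFR in MDA-MB-468 in high glucose had its highest library, replicate 2, at 62397 normalized read counts, and the others lay between 58085 and 58275. ERBB2 in MDA-MB-468 in low glucose had its lowest library, replicate 2, at 846.1. ERBB3 in MDA-MB-468 in high glucose had its highest library, replicate 3, at 1835. EPGN in MDA-MB-231 in high glucose had its single read in 1 library, a value of 0.951.

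The response to glucose differed between the lines for HBEGF, by 0.79 on the log2 scale (MDA-MB-468 minus MDA-MB-231, adjusted p = 6.08e-05, limma), and for BTC, by 0.74 (adjusted p = 0.0146, limma). Leaving out 1 library at a time changed neither call.

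Reads of AREGB, the near-identical copy of AREG, appeared in MDA-MB-468 in high glucose, with 9 in replicate 1 and 5 in replicate 2, against 0 in every low-glucose library of the line.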

How the results depend on the processing

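Over 44 member results, 1070 alternative values were computed, of which 1009 kept direction and call, 39 lost the call, 8 gained it and 14 turned direction, and 27 results changed in no alternative. The number of members called with glucose in MDA-MB-468 was 5, was 3 without a filter on low values, and ran from 2 to 5 with 1 library left out. The lowest values came without low-glucose or high-glucose replicate 3 (2 each) and without high-glucose replicate 4 (3). No count over all genes moved by over 1.5 times. Quantile rescaling shifted the balance of calls in MDA-MB-231 from 850 higher and 1395 lower to 1027 higher and 1114 lower. Differences that turned direction were those of TGFA in MDA-MB-231 without low-glucose replicate 1 (-0.0041) or 2 (-0.0066) or high-glucose replicate 1 (-0.0149) or 2 (-0.0083), in a range up to 0.047 with 1 library left out, and EGFR in MDA-MB-468 with the length correction, with and without the replicate block (0.0106). AREG in MDA-MB-468 turned without high-glucose replicate 1 (0.1053, lowest -0.879 with another left out) and summed with AREGB (0.7411). The AREG interaction turned with a pseudocount of 5 (0.0057), edgeR (0.0869), DESeq2 (0.0898), without MDA-MB-468 high-glucose replicate 1 (0.252, lowest -1.0028 with another left out) and as the sum (0.8864). BTC between the lines in high glucose turned with quantile rescaling (-0.0636). Of these, only the difference of EGFR in MDA-MB-468 was a call. The cause was not tested. Replicate numbers did not pair the libraries of MDA-MB-231. Deviations of same-numbered libraries correlated there between -0.04 and -0.0051, and 0 of 8 libraries correlated best with their own number. In MDA-MB-468 these correlations were small but positive, between 0.017 and 0.032, and 6 of 8 libraries correlated best with their own number. Whether the cultures of MDA-MB-468 were paired was not tested further. The block ended the calls of ERBB3 with glucose in MDA-MB-231 (log2 difference 0.2748, adjusted p = 0.0683, limma) and TGFA between the lines in high glucose (-0.1133, 0.0591). With the replicate block, 1624, 7383, 5062, 14567 and 14537 genes were called in the 5 comparisons (2245, 7495, 5288, 14621 and 14576 without it). Depth limits AREG, EREG and EPGN in MDA-MB-468.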

Other observations

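Among the neighbors of EGFR, 1 of 8 tested passed with glucose in MDA-MB-231 and 4 of 10 in MDA-MB-468, near the 15.1% and 47.6% of all genes. VOPP1, 554 kb from the EGFR start, rose by 0.36 on the log2 scale with high glucose in MDA-MB-468 (adjusted p = 5.34e-09, limma) and differed by -0.15 in MDA-MB-231 (adjusted p = 0.00919, limma). The difference between these responses was 0.51 (adjusted p = 1.62e-08, limma). SEC61G rose by 0.23 in MDA-MB-468 (adjusted p = 8.38e-06, limma), where EGFR differed by -0.08. In the chemokine cluster beside AREG, CXCL8 differed by -0.41 with high glucose in MDA-MB-231 (adjusted p = 0.00428, limma) and by -1.53 in MDA-MB-468 (adjusted p = 6.52e-06, limma). Of the genes around AREG, 3 of 8 tested passed with glucose in MDA-MB-231 and 3 of 6 in MDA-MB-468, beside the same shares.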
